A study of Mus musculus with 12 samples.

Results

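The transcripts described here are the 200 that fell most when wild-type (WT) mouse embryonic stem cells (ESC) became neural progenitor cells (NPC), out of 55419 transcripts in the deposited tables. They were followed into heterozygous (HET) and homozygous (KO) Chd8 mutant cells, to ask whether the loss is as complete without this chromatin remodeller. The members were chosen on deposited TPM (abundance per length, scaled to an equal total in each library). Transcripts longer than 300 and shorter than 10000 bases, outside 7 stretches of rows that the rule leaves out, were allowed, which came to 41795. Of these, 3666 were lower in both WT NPC libraries than in both WT ESC libraries, and the 200 with the lowest log2((mean WT NPC TPM + 1)/(mean WT ESC TPM + 1)) were taken.

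The 6 groups were KO NPC, KO ESC, HET NPC, HET ESC, WT NPC and WT ESC, with 2 libraries in each and 12 in all. The KO cells are CHD8-/- and the HET cells CHD8+/-. The ESC were kept in 2i, a medium with kinase inhibitors that holds cells in the naive pluripotent state, and the NPC were derived from ESC in culture. The labels give no number of lines or clones per genotype, and not how the alleles were made. Nor do they name separate cultures behind the replicates, so every p-value measures a spread between libraries that may be technical. RNA was total RNA depleted of ribosomal RNA. A library held 9062447 to 14766212 estimated counts. The KO and HET ESC libraries were deeper than those of WT ESC, and the KO and HET NPC libraries shallower than those of WT NPC.

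Naive stem cells run a network of transcription factors, among them Nanog, Esrrb, Klf4 and Tfcp2l1, that keeps them self-renewing. When the cells leave this state for the neural lineage, the network is shut down and its target genes fall silent while neural genes come on. CHD8 is an ATP-dependent helicase of the CHD family that binds near active promoters and is best known for its link with autism. The deposited tables name transcripts by UCSC-style identifiers and do not pair them with genes, and 0 of these identifiers occurred in the reference tables used here. The members therefore carry no gene names. Which of them belong to the pluripotency network, the level of Chd8 in each library and the markers of ESC and NPC could not be read, and no sequence is shown. Several members may be transcripts of 1 gene.

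The values that chose the members are a description only. The lowest WT log2 ratio was -5.47, the median -2.45 and the highest -1.96. The last transcript taken, uc009jbe.2, had 0 and 0.533 TPM in WT NPC and 3.16 and 4.68 TPM in WT ESC. The first transcript left out, uc008clt.1, had 0.772 and 0.237 TPM in WT NPC, against 5.25 and 4.4 TPM in WT ESC, at a ratio of -1.95. Members just inside and just outside the limit were thus alike. The strongest loss was that of uc007uhs.1, with 3.23 and 3.40 TPM in WT NPC, against 143 and 238 TPM in WT ESC. The next was uc007ztg.1, with 2.25 and 2.65 TPM in WT NPC and 104 and 99.4 TPM in WT ESC.

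Both of these were also lower in NPC than in ESC in the mutants, without overlap. uc007uhs.1 had 2.11 and 4.12 TPM in KO NPC and 207 and 140 TPM in KO ESC. In HET it had 3.21 and 2.97 TPM in NPC and 173 and 176 TPM in ESC. No NPC library of either mutant reached 5 TPM for this transcript, and no ESC library fell under 100 TPM. The fitted log2 change from ESC to NPC was -6.22 (SE 0.33, edgeR adjusted p = 0.000116) in KO and -6.26 (SE 0.34, edgeR adjusted p = 0.00013) in HET. uc007ztg.1 had 7.16 and 5.14 TPM in KO NPC and 150 and 109 TPM in KO ESC. In HET it had 3.55 and 3.49 TPM in NPC, against 100.1 and 115 TPM in ESC. Its fall was -4.86 (SE 0.20, edgeR adjusted p = 2.97e-05) in KO and -5.36 (SE 0.21, edgeR adjusted p = 2.25e-05) in HET. Its NPC level was higher in KO than in HET without overlap, by 0.87 (SE 0.21, log2), which missed the threshold over all transcripts (edgeR adjusted p = 0.344). Both KO and both HET NPC libraries also lay above both WT NPC libraries. Of the ESC level, 4.74% was left in KO, 3.28% in HET and 2.42% in WT. The transcript was named for its low WT ratio, so these contrasts with WT are a description only.

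Across the 200 members, the median level was lower in NPC than in ESC in every genotype. The median member stood at 0.793 and 0.936 TPM in the KO NPC libraries and at 10.1 and 8.24 TPM in KO ESC. It stood at 1.34 and 1.13 TPM in HET NPC and at 9.05 and 11.5 TPM in HET ESC. In WT, which chose the members, it stood at 0.890 and 0.754 TPM in NPC and at 8.63 and 14.7 TPM in ESC. Summed over the 200, the members held 701 and 823 TPM in KO NPC and 7879 and 6465 TPM in KO ESC, so 10.6% of the ESC sum was left. In HET they held 1007 and 746 TPM in NPC and 7822 and 7744 TPM in ESC, or 11.3%. In WT they held 1263 and 889 TPM in NPC and 8284 and 9765 TPM in ESC, or 11.9%. The most abundant member, uc009qug.2, named after its values were seen, held 71.1 and 155 TPM in KO NPC, 239 and 72.0 TPM in HET NPC and 406 and 250 TPM in WT NPC. Without it the shares of the sum were 10.8% in KO, 11.2% in HET and 10.7% in WT, which turns the order of the mutants and WT. In these bulk samples, fewer cells that hold a transcript and less of it per cell cannot be told apart.

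**Figure D1:**
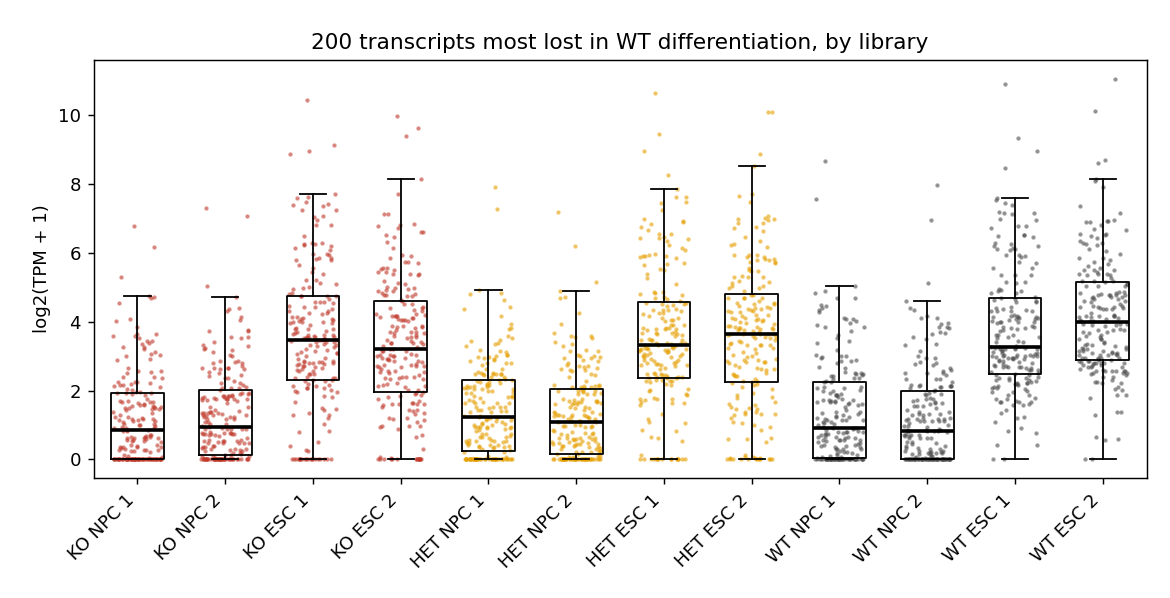
Each point is 1 of the 200 members, as log2(TPM + 1) on the vertical axis, in each of the 12 libraries (colour marks the genotype). The box spans the quartiles, the thick line is the median and the whiskers reach the farthest point within 1.5 box lengths. The median member lies between 0.754 and 1.34 TPM in the 6 NPC libraries and between 8.24 and 14.7 TPM in the 6 ESC libraries.

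The members were ranked on WT levels alone, so the fall within each mutant was tested. Mutant values may have entered the setting of the 7 row stretches left out. The spread in the fit was estimated over all 12 libraries, with the WT ones that chose the members. The tests are thus not wholly independent of the choice. Of the 200 members, 125 were called lower in KO NPC than in KO ESC (adjusted p under 0.05 by the quasi-likelihood test of edgeR), where 6.43% of all 30086 transcripts tested were called lower. In HET, 118 were called lower, where 5.16% of all tested transcripts were. None was called higher by edgeR, where 6.6% of tested transcripts were called higher in KO and 6.29% in HET. At an unadjusted p under 0.05, edgeR had 0 members higher in KO and 2 in HET. DESeq2 called 0 higher in KO and 1 in HET (12% and 12.2% of the transcripts it tested), and limma 1 in each (15.0% and 14.4%). Both mutants called 108 members, KO alone 17, HET alone 10, and neither 65, of which 5 had counts too low to be tested. In TPM, 167 members had both KO NPC libraries below both KO ESC libraries (14.8% of tested transcripts did), and 164 had both HET NPC below both HET ESC libraries (14.2%). In WT all 200 did by the rule (11.9% of tested transcripts). In 155 members this held in both KO and HET (7.58% of tested transcripts). The reverse order, NPC above ESC without overlap, was seen in 5 members in KO (43.9% of tested transcripts) and in 9 in HET (44.6%). In 4 members the mutants ran opposite ways without overlap (2.64% of tested transcripts). Some counts were lower in fits with fewer libraries. In either direction, the fit of the HET libraries alone called 1204 of 25512 transcripts and that of the KO libraries alone 2474 of 25582. The main fit called 1552 lower and 1893 higher in HET, and 1935 lower and 1985 higher in KO, of 30086. The KO count was 67 without KO NPC replicate 1 and 83 without KO NPC replicate 2. It was 106 in a fit of the KO libraries alone. The HET count was 78 without HET NPC replicate 2 and 74 in a fit of the HET libraries alone. With members chosen at a pseudocount of 0.1 TPM, 58 were called in KO and 50 in HET.

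The calls followed the level of the transcript. Of the 100 members with the higher mean TPM over all 12 libraries (5.75 TPM and above), 87 were called lower in KO and 87 in HET, and 97 in KO and 96 in HET had NPC below ESC without overlap. Of the 100 with the lower mean (0.768 to 5.71 TPM), 38 were called in KO and 31 in HET, and 70 in KO and 68 in HET showed no overlap. The counts thus differed more by level than by genotype. They also differed by the depth of the loss in WT. Of the 50 members with the strongest WT loss, 40 were called in KO and 42 in HET, and of the 50 with the weakest, 24 and 19. Members without overlap followed this order less steadily. From the strongest to the weakest 50 they numbered 47, 43, 35 and 42 in KO and 45, 45, 36 and 38 in HET. Shares over tested transcripts of like level were not taken, so these gradients cannot be ascribed to the members.

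Among called members without overlap and with a mean of at least 5 TPM over the 4 libraries of the genotype, the 2 largest fitted falls in KO were those of uc012hpq.1 and uc007zjq.1. uc012hpq.1 had no counts in either KO NPC library, against 18.1 and 27.7 TPM in KO ESC. Against a floor of 3 counts per NPC library, its level was at least 163-fold lower in KO NPC (edgeR adjusted p = 0.0229), a call that was lost without any 1 of the 4 KO libraries (edgeR adjusted p of 0.0538 to 0.104). In HET NPC it was also nearly absent, at 0.053 TPM in 1 library and close to 0 in the other, against 15.2 and 35.0 TPM in HET ESC (edgeR adjusted p = 0.0274), and this call too was lost without any 1 of the 4 HET libraries (edgeR adjusted p of 0.0607 to 0.165). uc007zjq.1 had 0.580 and 0 TPM in KO NPC, against 76.5 and 50.9 TPM in KO ESC (log2 change -8.14, SE 1.07, edgeR adjusted p = 0.00265). In HET it had 0 and 1.2 TPM in NPC, against 61.3 and 51.9 TPM in ESC (edgeR adjusted p = 0.00395). Its WT ESC libraries, at 25.2 and 26.5 TPM, stood below all 4 mutant ESC libraries.

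By the same rule, the 2 largest fitted falls in HET were those of uc009blt.1 and uc009hfr.2, neither of which had a count in HET NPC. uc009blt.1 had 28 and 13.2 TPM in HET ESC and was at least 79.1-fold lower in HET NPC against the same floor (edgeR adjusted p = 0.0171). The call was lost without HET ESC replicate 1, HET NPC replicate 1 or HET NPC replicate 2 (edgeR adjusted p of 0.0591 to 0.0821). In KO it had 1.30 and 0 TPM in NPC and 14.5 and 7.0 TPM in ESC, which missed the threshold (edgeR adjusted p = 0.0664) but passed by DESeq2 (adjusted p = 0.000736) and limma (adjusted p = 0.0102). The WT ESC libraries of uc009hfr.2 lay far apart, at 0.898 and 12.6 TPM. uc009hfr.2 had 3.92 and 18.8 TPM in HET ESC and was at least 55.6-fold lower in HET NPC (edgeR adjusted p = 0.0346). It had 0 and 0.378 TPM in KO NPC, against 10.4 TPM in both KO ESC libraries, and missed the threshold in KO as well (edgeR adjusted p = 0.0622), but passed by DESeq2 (adjusted p = 0.000499) and limma (adjusted p = 0.0266), and by edgeR without either WT ESC library (adjusted p = 0.0370 and 0.0409). The HET call of uc009hfr.2 was lost in 9 of 19 alternative fits (edgeR adjusted p up to 0.142), among them those without either HET ESC, HET NPC, KO ESC or WT NPC library.

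**Figure D2:**
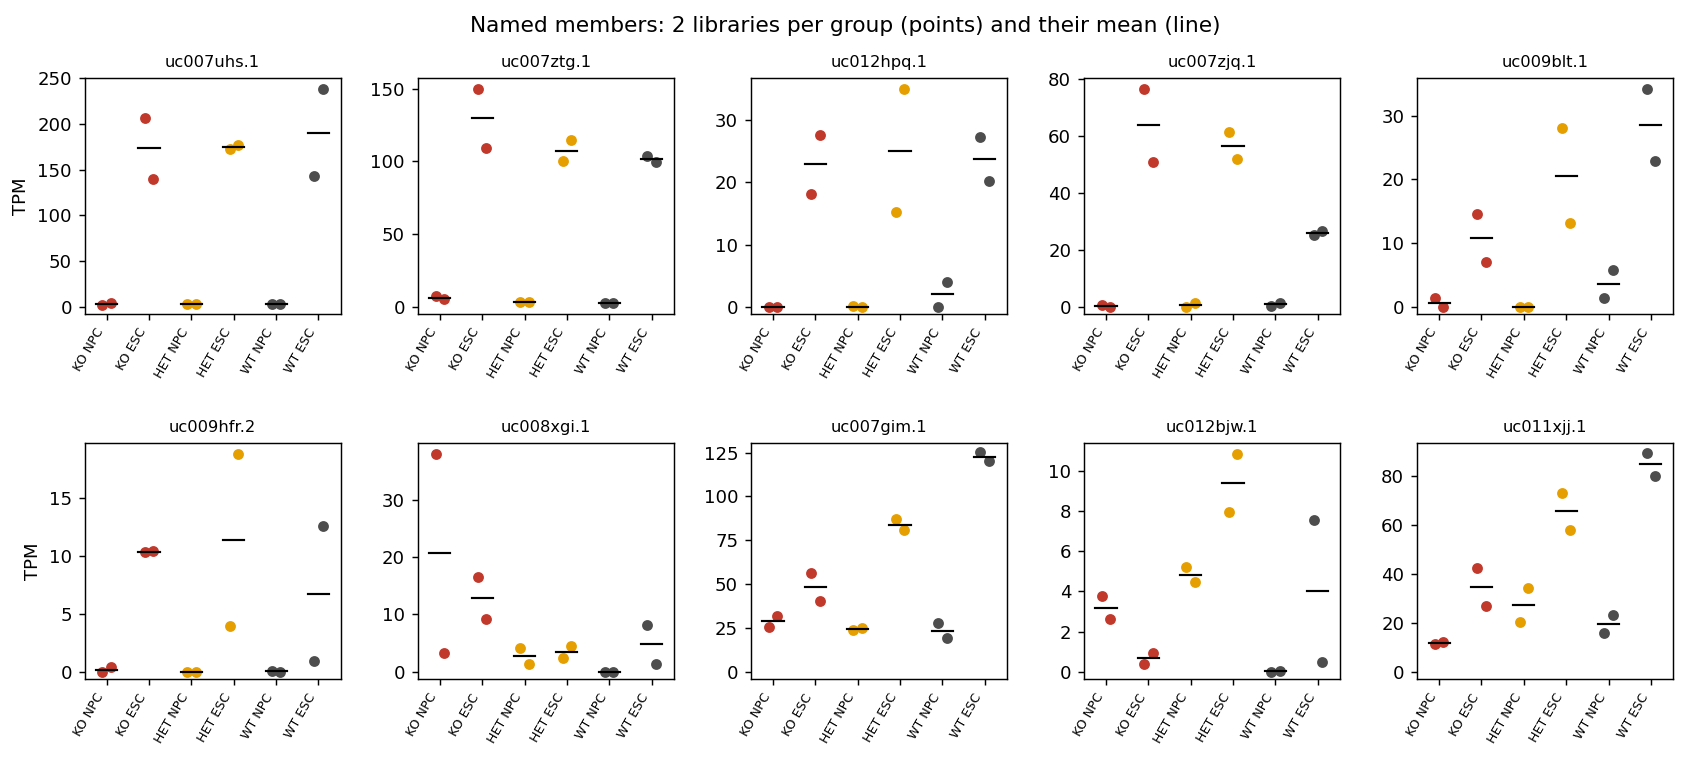
TPM of the 10 members named for their size of loss or of remainder, with 1 point per library, a line at the mean of the 2 libraries, and the groups along the horizontal axis (colour marks the genotype). In the first 6 panels every mutant NPC library lies below every ESC library of its genotype, while uc007gim.1 and uc011xjj.1 keep over 10 TPM in each NPC library.

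How complete the loss was within a genotype was read as the NPC mean in percent of the ESC mean of the same genotype. The median member kept 8.09% in KO, 10.2% in HET and 7.05% in WT, with 198, 198 and 200 members that had an ESC level above 0. With 1 TPM added to both means it was 18.9% in KO and 19.6% in HET, without WT NPC replicate 2 in the choice it was 13.8% in KO, and without HET NPC replicate 1 it was 6.06% in HET. Over all tested transcripts with at least 1 TPM in ESC, the median was 122% in KO, 122% in HET and 129% in WT. Taken library by library, the median share left was 5.48% and 7.12% in KO NPC, 11.2% and 6.06% in HET NPC and 7.54% and 4.85% in WT NPC. The ranges of the 3 genotypes overlapped. The WT shares come from the values that chose the members. Neither this overlap nor the WT counts that follow can therefore show an equally complete loss. Under 10% was left in 107 members in KO, 93 in HET and 129 in WT, and in 75 members in both KO and HET. A further 57 members in KO, 75 in HET and 71 in WT kept 10% to 50%. Members without a single count in either NPC library numbered 23 in KO, 18 in HET and 19 in WT.

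**Figure D3:**
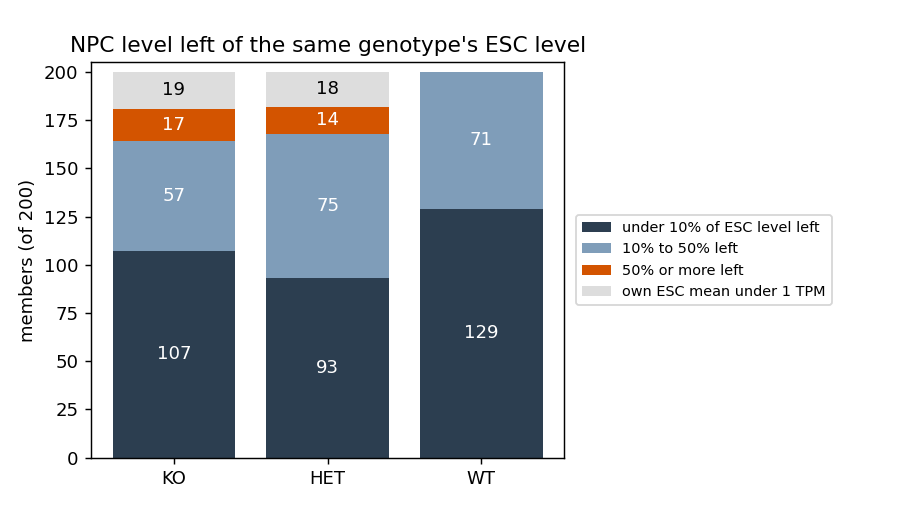
Stacked counts of the 200 members by the NPC level left in percent of the same genotype's ESC level, for KO, HET and WT. Members with an own ESC mean under 1 TPM (19 in KO, 18 in HET, 0 in WT, where the rule does not take them) stand apart at the top. Those with 50% or more left number 17, 14 and 0, the last again by the rule.

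Members with little in a mutant ESC to begin with, and members with 50% or more left, were counted apart. In KO, 19 members had a mean under 1 TPM in ESC already, and in HET 18 did, with 9 in common (47.4% of the KO ones and 50% of the HET ones). In WT ESC the same members had medians of 4.09 TPM (KO) and 4.09 TPM (HET), and in 11 of the 19 and 10 of the 18 the WT ESC libraries were over 4-fold apart, which was so in 28 of all 200 members. Apart from these, 17 members in KO and 14 in HET kept 50% or more, with 5 in common (29.4% of the KO ones and 35.7% of the HET ones). Their median was 3.84 TPM in KO NPC and 3.96 TPM in KO ESC, against 0.223 TPM in WT NPC and 6.39 TPM in WT ESC. For the HET ones it was 3.53 TPM in HET NPC and 2.34 TPM in HET ESC, against 0.044 TPM in WT NPC and 4.47 TPM in WT ESC. In their own ESC, 11 of the 17 in KO and 12 of the 14 in HET had a mean under 5 TPM, and in their own NPC 8 and 4 reached 5 TPM. Of the 17 in KO, 2 were still called lower. The rule chose all members for a high WT ESC and a low WT NPC level. The limits of 1 TPM and 50% then chose these members on their mutant values. Their contrasts with WT are thus built in and are a description only.

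Among members with at least 5 TPM in both KO ESC libraries, the largest remainders in KO NPC were those of uc008xgi.1 and uc007gim.1. uc008xgi.1 kept 160% in KO, but its libraries lay far apart, at 37.9 and 3.32 TPM in KO NPC and 16.6 and 9.16 TPM in KO ESC. In HET 81.1% was left, with 4.20 and 1.41 TPM in NPC and 2.40 and 4.52 TPM in ESC. The transcript had no counts in WT NPC, and its WT ESC libraries lay far apart, at 8.11 and 1.43 TPM. uc007gim.1 had 25.5 and 31.8 TPM in KO NPC and 56.1 and 40.6 TPM in KO ESC, or 59.3% left. It had 23.6 and 25.1 TPM in HET NPC and 87.1 and 80.7 TPM in HET ESC, and 27.6 and 19.4 TPM in WT NPC and 125 and 120.0 TPM in WT ESC. Its NPC levels were close in the 3 genotypes, while its ESC level was lowest in KO, higher in HET and highest in WT without overlap. The fall was called in both mutants, at -1.20 (SE 0.20, edgeR adjusted p = 0.00651) in KO and -2.23 (SE 0.20, edgeR adjusted p = 0.000698) in HET. Without KO NPC replicate 1 the KO call was lost (edgeR adjusted p = 0.0624). The difference between the falls, 1.03 (SE 0.28), missed the threshold (edgeR adjusted p = 0.664).

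Among members with at least 5 TPM in both HET ESC libraries, the largest remainders in HET NPC were those of uc012bjw.1 and uc011xjj.1. uc012bjw.1 had 5.20 and 4.47 TPM in HET NPC and 7.96 and 10.8 TPM in HET ESC, or 51.4% left. In KO the order was turned round, with 3.77 and 2.63 TPM in NPC and 0.406 and 0.920 TPM in ESC. In WT NPC it was at or near 0, while its WT ESC libraries lay far apart, at 7.55 and 0.498 TPM. uc011xjj.1 had 20.5 and 34.4 TPM in HET NPC and 73.2 and 58.2 TPM in HET ESC, or 41.8% left. It had 11.5 and 12.3 TPM in KO NPC and 42.4 and 27.0 TPM in KO ESC, and 15.8 and 23.2 TPM in WT NPC and 89.7 and 80.2 TPM in WT ESC. It stands in the row next to uc007gim.1 and shares its order of ESC levels over the genotypes. The fall was called in both mutants (edgeR adjusted p = 0.00505 in KO and 0.00958 in HET), but not in KO without KO NPC replicate 1 (edgeR adjusted p = 0.0535), nor in HET without HET ESC replicate 1 (edgeR adjusted p = 0.0578), without HET NPC replicate 1 (edgeR adjusted p = 0.0654) or in a fit of the HET libraries alone (edgeR adjusted p = 0.0592).

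By edgeR, no member was called between the mutants. KO NPC against HET NPC gave 0 members by edgeR, where 0.00665% of tested transcripts were called, and 24 of the 200 members (12%) had an unadjusted p under 0.05, against 7.38% of all tested transcripts. Limma called 0 members (0.0199% of transcripts) and DESeq2 9 (2.99% of transcripts). KO ESC against HET ESC gave 0 members by edgeR, where 0.00332% of tested transcripts were called, and 16 members (8%) had an unadjusted p under 0.05, against 9.32% of all tested. Limma called 0 members (0.00997% of transcripts) and DESeq2 8 (4.66% of transcripts). The difference of the fall between KO and HET gave 0 members by edgeR, where 0% of tested transcripts were called, and 19 members (9.5%) had an unadjusted p under 0.05, against 5.52%. Limma called 0 members (0% of transcripts) and DESeq2 5 (1.23% of transcripts). These comparisons were coarse. The median standard error of a tested member was 0.84 for KO against HET in NPC, 0.76 in ESC and 1.39 for the difference of the falls (log2), and among the 100 members of higher level it was 0.55, 0.49 and 0.74. Changes of the size of these errors would not have been detectable, and differences of several times their own error were not called either. That of uc007ztg.1 in NPC was 0.87 (SE 0.21, edgeR adjusted p = 0.344). The falls of uc007gim.1 differed by 1.03 (SE 0.28, edgeR adjusted p = 0.664). The median fitted log2 difference over tested members was -0.12 in NPC and -0.09 in ESC, beside 0.00 and 0.004 over all tested transcripts.

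Set beside WT, the median difference of the mutants lay closer to 0 in NPC than in ESC. The median log2((TPM + 1)/(TPM + 1)) was -0.07 for KO over WT in NPC and -0.47 in ESC, and for HET over WT it was 0.00 in NPC and -0.29 in ESC. In NPC 115 members were lower and 75 higher in KO than in WT, and 93 were lower and 97 higher in HET than in WT. In ESC 148 members were lower in KO than in WT, and 143 were lower in HET than in WT. These values are unscaled TPM, with no share over all transcripts beside them. The TMM scaling factors in ESC were 0.915 and 0.780 in KO, 0.905 and 0.890 in HET and 0.932 and 0.985 in WT. In NPC they were 1.105 and 1.067 in KO, 1.070 and 1.138 in HET and 1.157 and 1.141 in WT. Beside WT, mutant levels thus read lower in unscaled values than after TMM. The fall itself was smaller in KO than in WT in 123 members and larger in 77, and the counts for HET were the same. It was smaller by over 1 on the log2 scale in 57 members in KO and 44 in HET, and larger by over 1 in 18 and 12. Between the mutants, 98 members fell less and 102 fell more in KO than in HET. The WT libraries chose the members for a high ESC and a low NPC level, so the comparisons with WT carry no test.

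**Figure D4:**
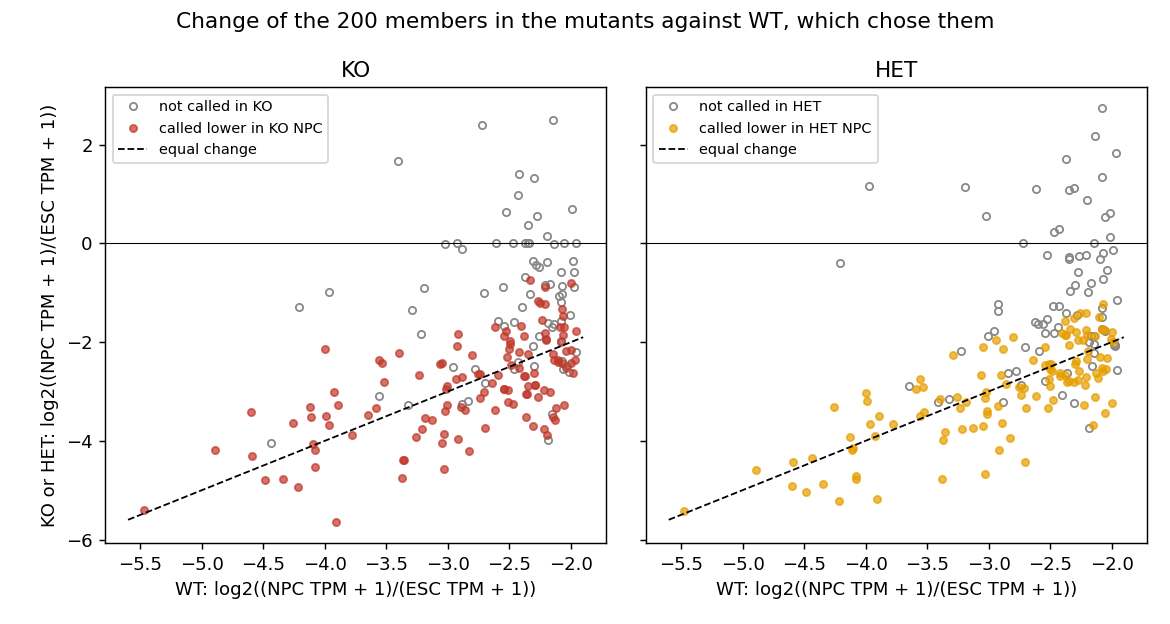
For each of the 200 members, log2((NPC TPM + 1)/(ESC TPM + 1)) in KO (left) and HET (right) on the vertical axis against the same ratio in WT on the horizontal axis. Filled points were called lower (125 in KO, 118 in HET), open points were not, and the dashed line marks an equal change. The median is -2.40 in KO, -2.35 in HET and -2.45 in WT.

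A WT measurement that did not choose the members was had by choosing 200 transcripts from 1 WT replicate and reading the other. A replicate here is the ESC and the NPC library of equal number, a matching that the labels do not give. Crossed pairs were not read. With WT replicate 1 choosing, the median log2 ratio was -1.0 in KO, -1.36 in HET and -1.36 in the WT replicate left out, while it was -2.79 in the replicate that chose. The median share left was 25.1% in KO, 20.1% in HET and 17.1% in the WT replicate left out, against 2.16% in the one that chose. Read 1 replicate at a time, as WT was, the shares were 13% and 24.3% in KO and 17.6% and 13.2% in HET. With WT replicate 2 choosing, the median log2 ratio was -2.13 in KO, -1.98 in HET and -1.60 in the WT replicate left out, against -3.10 in the one that chose. The median share left was 10.2% in KO, 11.9% in HET and 16.4% in the WT replicate left out. Read 1 replicate at a time, the shares were then 5.18% and 9.17% in KO and 12.7% and 6.08% in HET. The single KO and HET replicates lay on both sides of WT when replicate 1 chose, and all 4 lay below it when replicate 2 chose. Of the transcripts so chosen, read 1 replicate at a time, 50% or more was left in 50 and 59 in KO, 45 and 48 in HET and 41 in the WT replicate left out when replicate 1 chose. When replicate 2 chose, these counts were 23 and 26 in KO, 21 and 25 in HET and 28 in the WT replicate left out. The order thus turned. Transcripts under 1 TPM in the ESC so read stood apart. They numbered 35 and 37 in KO, 31 and 31 in HET and 43 in WT when replicate 1 chose. With replicate 2 choosing, they numbered 44 and 38 in KO, 38 and 38 in HET and 37 in WT. The counts thus rest on unlike numbers of transcripts. The sets of 200 shared 103 and 134 transcripts with the members described above. With 1 WT library per cell type left to read, there is no test.

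**Figure D5:**
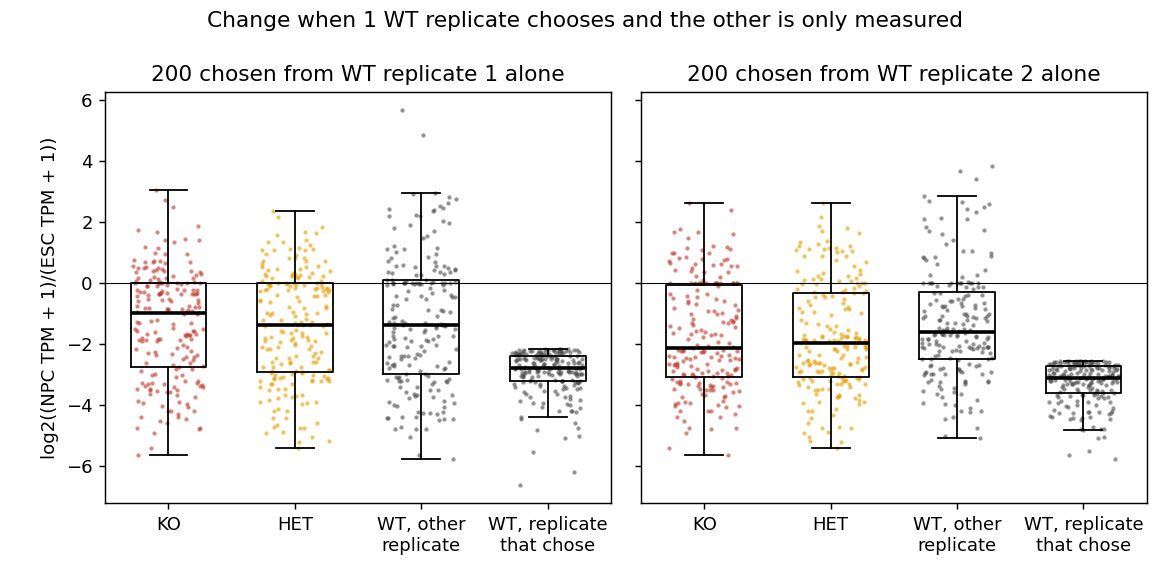
Change from ESC to NPC, as log2((NPC TPM + 1)/(ESC TPM + 1)), of 200 transcripts chosen from WT replicate 1 alone (left) or WT replicate 2 alone (right), read in KO and in HET (means of 2 libraries), in the other WT replicate and in the replicate that chose. Points are transcripts, boxes the quartiles, thick lines the medians and whiskers the farthest point within 1.5 box lengths. The medians of KO, HET and the other WT replicate lie between -1.0 and -2.13, above those of the replicate that chose, at -2.79 and -3.10.

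A core of members stayed measurable in NPC of all genotypes. At least 5 TPM in both NPC libraries was seen in 25 members in KO, 27 in HET and 28 in WT. Of these, 17 were common to all 3 genotypes. In KO 8 members stood at that level that did not in WT, and 11 did in WT and not in KO. In HET 3 did that did not in WT, and 4 did in WT and not in HET.

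The median length of the members was 1876 bases (313 to 9285), against 2789.5 bases over the 24180 allowed transcripts that were tested. In the deposited row order, 65 of the 200 had another member within 5 rows, in 27 groups of at most 5 members. Of the 238 tested transcripts in a row directly next to a member that were not members themselves, 37 (15.5%) were called lower in KO NPC and 36 (15.1%) in HET NPC, against 6.43% and 5.16% of all tested transcripts, and 9 and 4 were called higher. Transcripts of neighbouring rows may share reads, which kallisto divides among them. In 8 members, chosen after their values were seen, the ESC replicates split the same way in all 3 genotypes. In 6 of them replicate 2 was over 2-fold above replicate 1 on the TPM + 1 scale, and in 2 it was the reverse. The clearest was uc008ajq.1, with 5.84 and 35.1 TPM in KO ESC, 6.84 and 38.3 TPM in HET ESC and 4.43 and 44.5 TPM in WT ESC. All 6 of its NPC libraries lay under 0.5 TPM. How many of all tested transcripts have ESC replicates split alike was not counted, so the 8 cannot be ascribed to the members.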

How the data were processed

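The submitters' processing notes name cutadapt 1.16, kallisto and the build mm9, with no kallisto version. Per the labels' protocols, a SMARTer kit that keeps strand was used. Per the file headers, each deposited table gives an estimated count (an expected count, in which a read is shared among compatible transcripts) and a TPM value for each transcript. Isoforms and paralogs can exchange reads, and levels in TPM depend on the rest of the library.

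Members were chosen on the deposited TPM, and levels and shares are in TPM. Estimated counts were rounded and fitted with edgeR 4.0.16 in R 4.3.3 (filterByExpr with a minimum count of 10, TMM, glmQLFit with robust moderation, 1 mean per group, all 12 libraries). The two-sided tests ran over 30086 transcripts, adjusted by Benjamini-Hochberg at 0.05, with 6 residual degrees of freedom and a biological coefficient of variation of 0.591. Standard errors are log2 changes over the root of F. TMM lowers fitted changes from ESC to NPC: without it the median over all tested transcripts was 0.30 in HET and 0.33 in KO, and with it 0.00 in both, so shares in TPM read higher than fitted changes. Of the members, 195 were tested, and counts are given over all 200.

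Alternatives were DESeq2 1.42.0, limma 3.58.1 on log2(TPM + 1), other scalings, filters and member rules, and leaving out each library. The fit was tested on simulated data. Per mutant, the named members are at most 2 with the largest fitted fall or rise (adjusted p under 0.05, mean of at least 5 TPM, no overlap) and the 2 with the largest share left, beside the 2 with the largest WT loss and those at the limit of the rule. The members and lists were chosen with earlier results of these data known.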

Additional observations from a re-analysis of the deposited data

Results flagged for a closer look

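In 4 members the NPC libraries lay above the ESC libraries in 1 mutant and below them in the other, without overlap, as in 2.64% of all tested transcripts. No test of the difference passed (edgeR, adjusted p of at least 0.59). uc008jcd.1 had a mean of 0 TPM in KO NPC and 2.94 TPM in KO ESC, and 7.52 TPM in HET NPC and 0.273 TPM in HET ESC. uc007rcn.2 had 0.802 TPM in KO NPC and 2.57 TPM in KO ESC, and 6.54 TPM in HET NPC and 2.38 TPM in HET ESC. uc007ehk.2 had 0.337 TPM in KO NPC and 0.982 TPM in KO ESC, and 2.16 TPM in HET NPC and 0.247 TPM in HET ESC. uc012bjw.1 went the other way, with 3.20 TPM in KO NPC and 0.663 TPM in KO ESC, and 4.84 TPM in HET NPC and 9.40 TPM in HET ESC. All of these means lay under 10 TPM.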

How the results depend on the processing

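Depth and 2 libraries per group limit the comparisons of KO with HET, and low members most. The count of members called lower from ESC to NPC was 118 in HET and 125 in KO. DESeq2 called 151 in KO and 144 in HET, and limma 140 in KO and 143 in HET. Over all transcripts and in either direction, DESeq2 called 6958 of 30086 in KO and 6687 of 29502 in HET. Limma called 5625 in KO and 5259 in HET, of 30086 each. It was 58 in KO and 50 in HET when the member rule used a pseudocount of 0.1 TPM, which kept 95 of the 200, and 73 in KO and 73 in HET with members from WT replicate 1 alone. Of 100 members 73 were called in KO and 70 in HET, and of 400 members 214 and 201. A fit of only the compared libraries called 106 in KO and 74 in HET. Leaving out 1 library gave 67 to 124 in KO and 78 to 110 in HET. KO against HET gave 0 members under every edgeR and limma alternative, and under DESeq2 9 in NPC, 8 in ESC and 5 for the difference of the falls. With the replicate number as a block, edgeR called 118 members lower in KO, 109 in HET and 0 between the mutants. The labels do not say what the number marks. Deviations of same-numbered libraries correlated at 0.08 between KO NPC and KO ESC, -0.06 between HET NPC and HET ESC, -0.15 between KO NPC and HET NPC and 0.21 between KO ESC and HET ESC. In ESC they correlated at 0.12 between WT and HET and 0.05 between WT and KO, and between WT NPC and WT ESC at -0.13. The number was not taken as a pairing in the main fit, though it may mark variation that ESC libraries share. Only the readings of 1 replicate at a time put equal numbers together. The median share left, 8.09% in KO and 10.2% in HET, was 18.9% and 19.6% with 1 TPM added to both means. It was 5.91% in KO and 7.76% in HET on TMM-scaled CPM, and 4.81% in KO with a member rule pseudocount of 0.1 TPM. It was 6.21% in KO and 6.26% in HET for 100 members and 12.5% and 16.6% for 400. From WT replicate 1 alone it was 25.1% in KO and 20.1% in HET, and from replicate 2 alone 10.2% in KO. Leaving out 1 library gave 5.48% to 13.8% in KO and 6.06% to 13.9% in HET. No call of the named members changed sign in its 19 alternative fits. The KO change of uc008xgi.1, not called at 0.22 (log2), was -0.35 with the replicate block, -0.043 by limma, and -2.35 to 1.11 when 1 library was left out.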
